A study of Mus musculus with 9 samples.

Results

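The replication-dependent histone genes encode the bulk of the core histones H2A, H2B, H3 and H4 and of linker histone H1. Here they were taken as every protein-coding gene on chromosomes 1 to 19 of the GENCODE M21 annotation (mm10) whose symbol starts with Hist1h, Hist2h, Hist3h or Hist4h, which gave 67 of 20807 genes. There were 6 H1, 18 H2A, 18 H2B, 12 H3 and 13 H4 genes. Of these, 54 belonged to the Hist1 cluster on chromosome 13, 10 to Hist2 on chromosome 3, 2 to Hist3 on chromosome 11 and 1 to Hist4 on chromosome 6. Chromatin accessibility had been profiled by ATAC-seq, in which a transposase cuts and tags open DNA, in primary mouse embryonic fibroblasts (MEFs) below passage 8. The groups were wild type (WT, 3 libraries), Anp32e null (3 libraries), and Anp32e null cells transfected with non-targeting siRNA (NT siRNA, 1 library) or with siRNA against H2A.Z (H2A.Z siRNA, 2 libraries). ANP32E is a chaperone that removes the variant histone H2A.Z from nucleosomes, so both siRNA groups also lacked ANP32E. The libraries of a group had been merged before peaks were called, leaving 1 peak list per group and no replicate values, so the comparisons below are descriptions without a test. Where 4 values stand in a row, they are those of WT, then Anp32e null, then NT siRNA, then H2A.Z siRNA.

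Cells copying their DNA need new histones in step with it, and the genes that supply them are switched on together in S phase. They are short, mostly without introns, and present in many copies, and their transcripts end in a stem loop in place of a poly(A) tail. Many H2A and H2B genes lie head to head and share the DNA between their starts. Transcription and 3' end processing take place in the histone locus body, a nuclear compartment built on NPAT. Variant histones such as H2A.Z and H3.3 are made from genes elsewhere, outside S phase as well.

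The sequences in front of 5 sets of starts are shown as examples of histone promoters. Bases matching a motif on either strand are in capitals, and matches did not overlap in any of the 5. The motifs searched were the TATA box (TATAAA), the CCAAT box (CCAAT, bound by NF-Y), the octamer of H2B promoters (ATTTGCAT), the SP1 site (GGGCGG), an E2F site (TTTGGCGC) and the AC box of H1 promoters (AAACACA). The first 2 sequences run, on the plus strand, between the RefSeq starts of head-to-head pairs. These are Hist1h2ah and Hist1h2bk (chr13:22035644-22035820), the pair with the highest mean rank, and the testis genes Hist1h2ba and Hist1h2aa (chr13:23934157-23934436), which had no peak. The others are the 150 bases before the RefSeq starts of Hist1h1c (chr13:23738657-23738806, plus strand), Hist1h3e (chr13:23562386-23562535, minus strand) and Hist1h4c (chr13:23698459-23698608, minus strand), all in GRCm38, the assembly behind mm10.
Hist1h2ah and Hist1h2bk: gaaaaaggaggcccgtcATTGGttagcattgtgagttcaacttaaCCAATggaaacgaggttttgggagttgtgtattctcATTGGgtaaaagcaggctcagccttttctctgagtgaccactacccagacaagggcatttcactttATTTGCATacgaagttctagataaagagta
Hist1h2ba and Hist1h2aa: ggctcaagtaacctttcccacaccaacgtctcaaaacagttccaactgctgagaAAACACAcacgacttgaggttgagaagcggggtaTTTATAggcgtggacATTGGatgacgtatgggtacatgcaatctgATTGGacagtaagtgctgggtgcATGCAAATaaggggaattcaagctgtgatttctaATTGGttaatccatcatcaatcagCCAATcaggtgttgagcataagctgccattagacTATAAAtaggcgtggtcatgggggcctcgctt
Hist1h1c: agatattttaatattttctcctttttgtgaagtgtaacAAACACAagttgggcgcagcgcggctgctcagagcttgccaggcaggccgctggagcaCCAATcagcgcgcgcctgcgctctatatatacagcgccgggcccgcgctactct
Hist1h3e: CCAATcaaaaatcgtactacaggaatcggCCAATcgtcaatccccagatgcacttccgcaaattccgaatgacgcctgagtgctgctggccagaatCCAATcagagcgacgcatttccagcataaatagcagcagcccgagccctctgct
Hist1h4c: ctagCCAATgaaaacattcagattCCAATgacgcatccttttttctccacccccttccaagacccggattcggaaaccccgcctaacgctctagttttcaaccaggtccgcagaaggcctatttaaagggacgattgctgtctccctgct

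RefSeq promoter entries on GRCm38.p6, running from 250 bases before to 50 after a start, were matched to 62 of the 67 genes. A CCAAT box was present in all 6 H1, all 18 H2A, all 16 H2B and all 10 H3 genes matched, against 3 of 12 H4 genes, Hist1h4c shown above among the 3, and 37.4% of 32851 promoters of the same length. The H4 genes stood apart in this element from every other class. The TATAAA letters were found in 35 of 62 histone genes (56.5%), against 13.6% of all promoters. Hist1h2ah and Hist1h2bk were both counted, though the sequence shown between their RefSeq starts holds no such match. The letters counted there thus reach past a RefSeq start. The octamer was found in 7 of 18 H2A and 7 of 16 H2B genes and in no H1, H3 or H4 gene, against 1.74% of all promoters. The windows of head-to-head H2A and H2B genes overlap, so the same match can count for both, as the octamer of Hist1h2ah and Hist1h2bk did. For every motif, the H2A and H2B counts are therefore not independent. The AC box was found in 5 of 6 H1 genes, in 2 H2A and 2 H2B genes, and in 7.18% of all promoters. GGGCGG was found in 24 of 62 histone genes (38.7%), near the 35.7% of all promoters. By class it was in 4 of 6 H1, 7 of 18 H2A, 2 of 16 H2B, 2 of 10 H3 and 9 of 12 H4 genes, though not in Hist1h4c. The E2F letters TTTGGCGC matched none of the 62 and 0.514% of all promoters.

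On chromosomes 1 to 19, X and Y there were 84040, 82567, 89272 and 108409 peaks. The genome-wide background, in fragments and in proportion to depth, was 8.85, 5.12, 3.88 and 17.8 in the same order, so the H2A.Z siRNA list was the deepest and the NT siRNA list the shallowest. Since fold values depend on depth, each peak's fold enrichment over local background was turned into a percentile within its own list, where 100% is the peak of highest fold. All 9 fibroblast marker genes looked up, Col1a1, Vim and Prrx1 among them, had a peak within 1 kb of a start in every list. Ptprc and Cd3e (blood), Nanog (stem cells) and Alb (liver) had none in any list, whereas the epithelial genes Epcam and Cdh1 had a peak in every list.

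The same 59 histone genes had a peak within 1 kb of a start in all 4 lists, and the other 8 had none in any list. This share of 88.1% (exact 95% binomial interval 77.8 to 94.7%, counting error only) compares with 68.6%, 68.1%, 68.3% and 69.9% of all protein-coding genes. Within 1 kb, no histone gene gained or lost its peak between any 2 groups. At narrower limits the counts differed. Within 500 bp they were 58, 58, 59 and 59, and where the peak had to contain a start, 53, 53, 53 and 56. With equal numbers of peaks from each list, 58 genes had a peak within 1 kb in H2A.Z siRNA and 59 in the others. By class, all 12 H3 and all 13 H4 genes had a peak, as did 15 of 18 H2A, 15 of 18 H2B and 4 of 6 H1 genes. Because neighbouring genes share peaks, the 59 genes rested on 41, 39, 40 and 38 distinct peaks, and the genes are not independent observations. A gene's 5' end lay inside its peak for 49, 47, 48 and 50 of the 59 in these lists, and otherwise the highest-ranked peak within 1 kb, often a neighbour's, stood for the gene. By class, it lay inside for 6, 6, 6 and 7 of 12 H3 genes, but for 14 of 15 H2A and 14 to 15 of 15 H2B genes. For H4 genes it was 10, 10, 11 and 12 of 13, and for H1 genes 4, 3, 3 and 3 of 4. The presence, ranks and widths of H3 genes thus rest in large part on peaks that do not cover the start.

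The 8 genes without a peak fell into 3 kinds. Hist1h2bq, Hist1h2ao, Hist1h2ap and Hist1h2br, 2 head-to-head pairs of H2A and H2B genes, lay in windows where 100% of the 100-base words occur elsewhere in the genome. The authors' handling of reads that fit several places is not given in the sources used here, so for these 4 genes an absent peak cannot be told apart from reads that could not be placed. Hist1h1t, the linker histone of spermatocytes, and Hist1h2ba and Hist1h2aa, the testis forms of H2B and H2A, had 0%, 4.2% and 4.2% such words and no peak. The nearest peak to Hist1h2ba was 84181, 56757, 56670 and 5256 bp away. The nearest to Hist1h1t was 1707 to 1854 bp away and was that of Hist1h4c, whose percentile it carried in every list. The eighth, Hist1h1d, another linker histone, differed between annotations. Its GENCODE start (23553262) lay 1770 bp from its RefSeq start (23555032), where every list had a peak of 1613 to 1621 bp at percentiles of 76.7, 62.2, 61.2 and 60.4. With RefSeq starts, 60 of the 67 genes had a peak in each list.

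**Figure D1:**
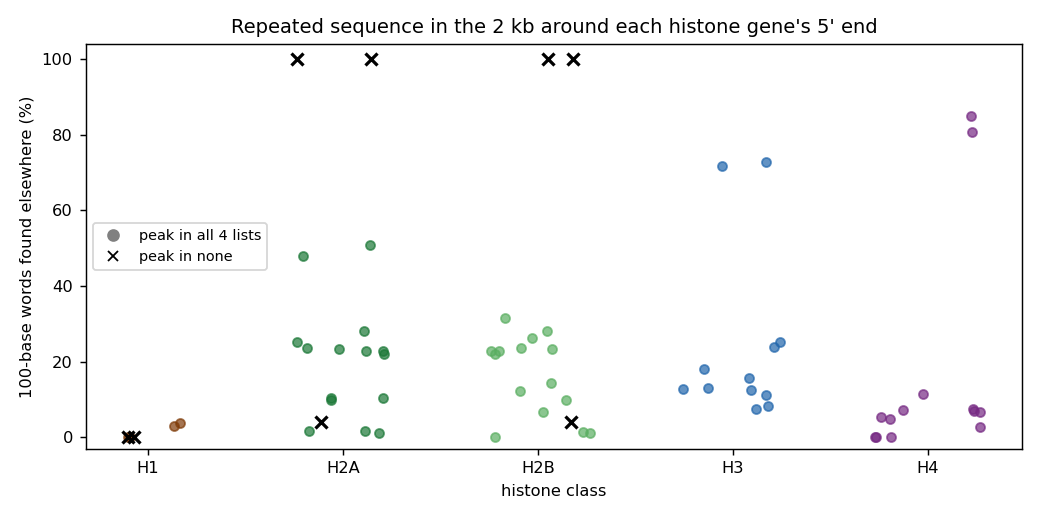
Percent of 100-base words in the 2 kb around each histone gene's 5' end that occur elsewhere in the genome (y axis), by histone class (x axis, points spread sideways), with filled circles for genes with a peak in all 4 lists and crosses for genes with none. The 4 crosses at 100% are Hist1h2bq, Hist1h2ao, Hist1h2ap and Hist1h2br, and the crosses near the bottom are Hist1h1d, Hist1h1t, Hist1h2ba and Hist1h2aa.

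Repetition touched other genes to a lesser degree. The share of 100-base words found elsewhere was 84.9% at Hist1h4m and 80.7% at Hist1h4n, which lie beside the 4 fully repeated genes, and 71.7% and 72.7% at Hist2h3c2 and Hist2h3c1. It was 50.8% at Hist2h2aa2 and at most 47.9% at the other 58 genes. Values at these 5 genes are therefore uncertain and are given with and without them below.

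The 12 head-to-head pairs were all of an H2A with an H2B gene, with 175 to 305 bp between GENCODE starts. In 9 pairs a single peak covered both starts in all 4 lists, and in the other 3 neither gene had a peak. At Hist1h2ah and Hist1h2bk the peak ran from chr13:22035017-22036433 in WT, over the promoter sequence shown and into both genes, and was 1417, 1365, 1379 and 1542 bp wide in the 4 lists. Summits of H2A and H2B genes lay mostly before the start. Among genes with the start inside the peak, the median summit position in WT was -86.5 bp for H2A and -101 bp for H2B, negative being before the start. For H3 and H4 genes the medians were 48.5 and 64 bp into the gene in WT, and they were 14 to 79 bp into the gene over all 4 lists.

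**Figure D2:**
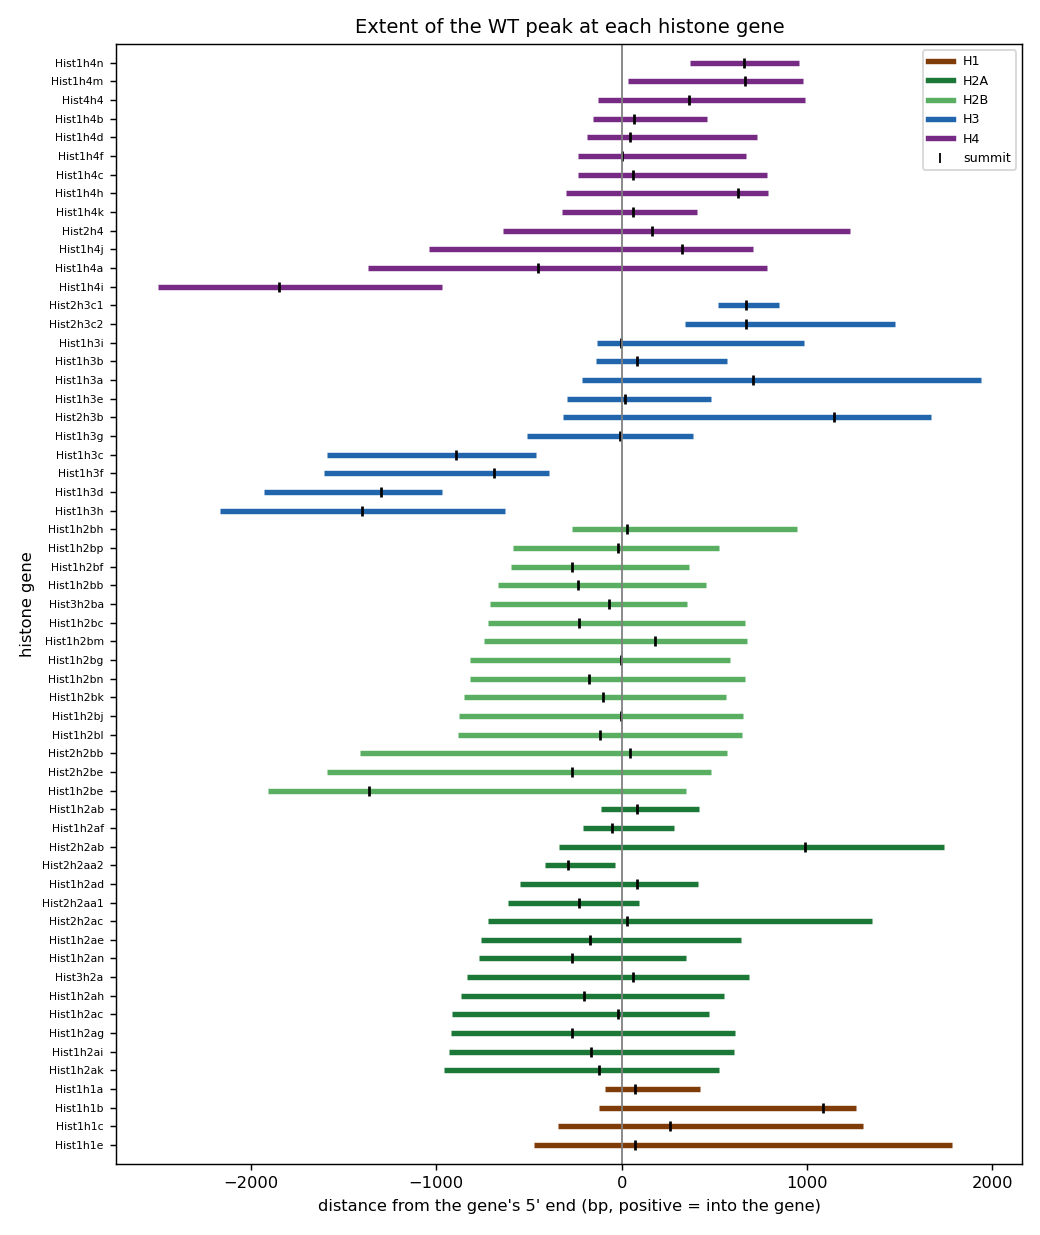
Extent of the WT peak (coloured bars, by histone class) and its summit (black ticks) at each of the 59 histone genes with a peak, as distance from the gene's 5' end in bp, positive into the gene. H2A and H2B peaks span the start with the summit mostly before it, H4 summits lie mostly after it, and bars away from 0 are peaks of a neighbouring start within 1 kb of an annotated start.

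Peaks at histone genes were high in fragments but not in fold. The median percentile by fold was 79.3, 72.6, 64.6 and 67.7, against 81.5, 79.9, 79.4 and 81.4 at all protein-coding genes with a peak. Ranked by the number of fragments at the summit instead, the median percentile of the histone genes was 90.7, 89.4, 96.6 and 97.1, against 86.4, 85.6, 88.7 and 89.9. The histone medians thus lay below those of all genes in 1 ranking and above them in the other, but in WT the 95% interval of the histone median by fold, 72.1 to 82.8, held the all-gene median, and the H2A and H2B medians lay above it. Between these measures stands the local background, which MACS2, where no control library is given, takes from the surrounding fragments. Relative to the genome-wide background of the list, it had a median of 3.32, 4.89, 13.6 and 12.9 at histone genes and of 2.01, 2.53, 4.67 and 4.27 at all genes. Its part in the fold ranks was not tested. The span of the largest stretch of Hist1, with 29 genes, was covered by peaks over 11.9%, 11.3%, 12.6% and 15.1% of its length, against 2.24%, 2.16%, 2.27% and 3.31% of chromosomes 1 to 19.

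**Figure D3:**
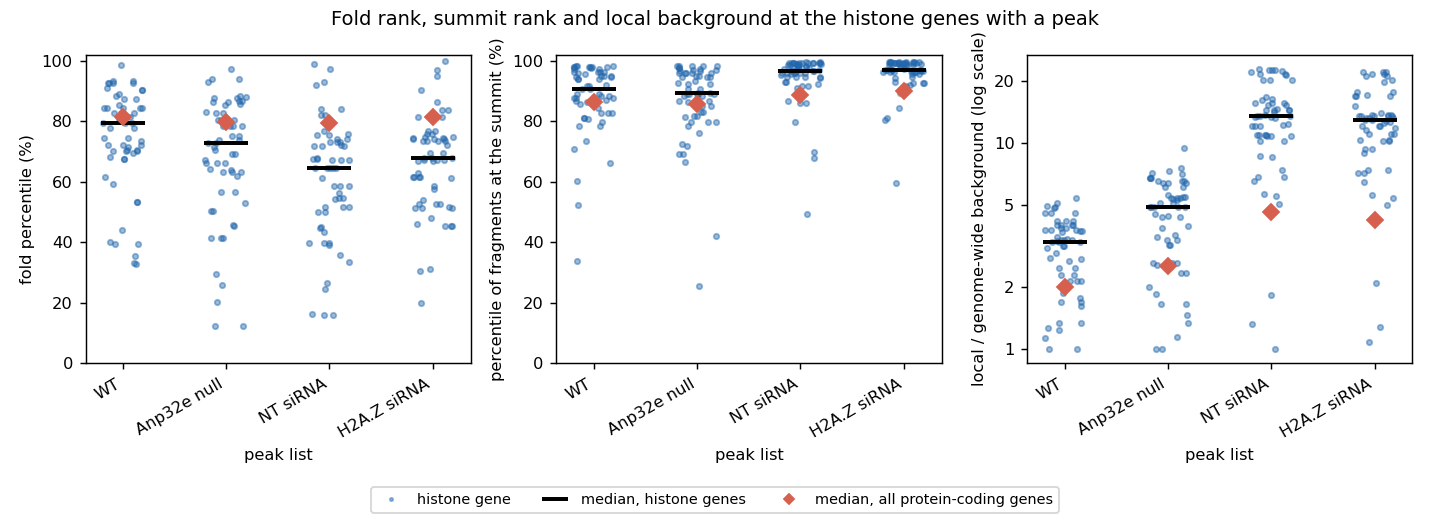
Fold percentile, percentile of fragments at the summit, and local over genome-wide background (log scale) for the 59 histone genes (blue points, spread sideways) in each of the 4 peak lists, with their median (black bar) and the median of all protein-coding genes with a peak (red diamond). The black bars lie below the diamonds for fold (79.3 against 81.5 in WT) and above them for summit fragments and local background in every list.

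Peak width at histone genes was close to that at other genes. Their median width was 1213, 1164, 1157 and 1356 bp, against 1151, 1117, 1085 and 1297 bp at all protein-coding genes with a peak. The widest were at H2A, H2B and H1 genes, with WT medians of 1401, 1417 and 1514.5 bp, and the narrowest at H3 and H4 genes, with 1122.5 and 1025 bp.

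The classes had the same order of fold rank in WT and Anp32e null, with H2A and H2B on top, though their ranges overlapped. In WT the median percentile was 82.8 for both H2A and H2B, 72.04 for H3, 71.4 for H4 and 70.3 for H1. The 95% interval of the median ran from 70.3 to 90.2 for H2A and from 53.4 to 82.8 for H3, so these neighbours did not separate. The 82.8 of H2A, of H2B and of the upper H3 limit was that of the same peak, which stood for Hist1h2ai, Hist1h2bl and Hist1h3h. The 9 peaks over head-to-head pairs entered both the H2A and the H2B values, so these 2 classes are not independent. In H2A.Z siRNA the medians were 73.5 for H2B, 69.5 for H2A, 61.4 for H4, 60.2 for H3 and 54.5 for H1.

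**Figure D4:**
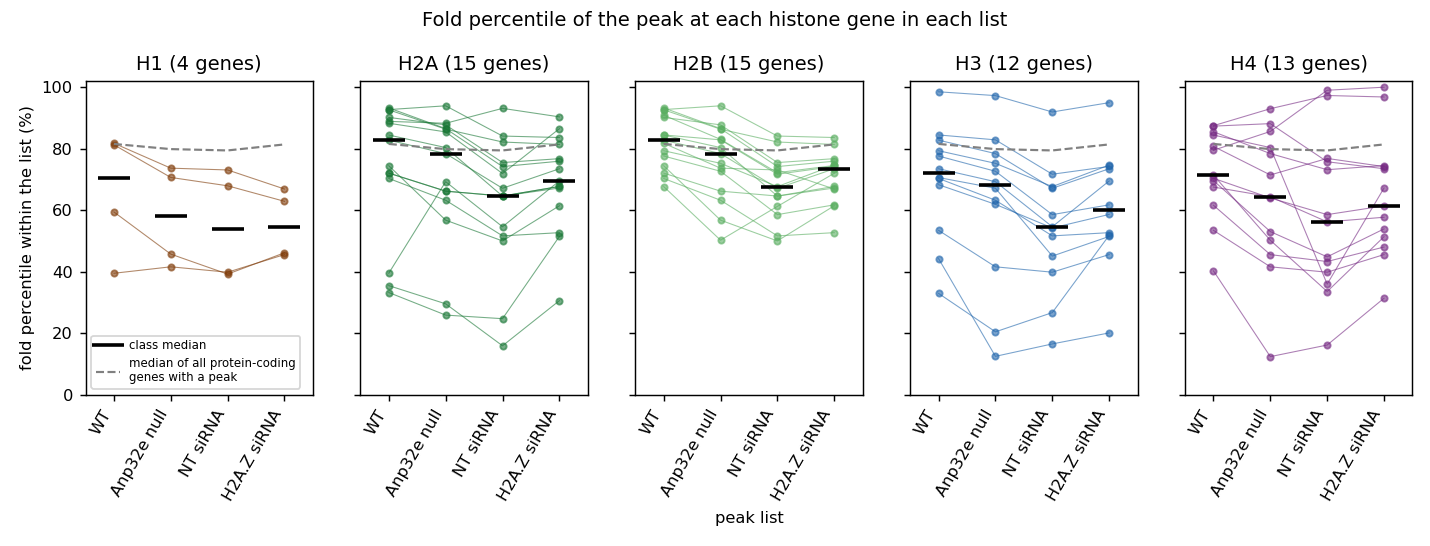
Fold percentile (y axis) of the peak at each histone gene in the 4 lists (x axis), 1 panel per class, with thin lines joining the values of a gene, black bars for class medians and the dashed line for the median of all protein-coding genes with a peak. Most lines go down from WT to NT siRNA, and the H4 panel holds both 2 of the highest lines (Hist1h4m and Hist1h4n) and 1 of the lowest (Hist1h4k).

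The range over genes was wide. Hist1h3e, an H3 gene, had the highest mean percentile (95.7), with 98.5, 97.3, 91.9 and 94.96 in the lists and a local background only 1.34 times the genome-wide one in WT. Hist1h4n and Hist1h4m followed with means of 93.6 and 91.0. At Hist1h4m the percentile was 79.5, 85.6, 99.0 and 99.99. Its summit held 72 fragments in WT, at a percentile of 66.1 and below the histone median of 183, over a local background of 1.00 times the genome-wide value. Both genes are among the repeated ones. At the other end stood Hist1h3i (44.2, 12.4, 16.5 and 20.1), Hist1h4k (40.2, 12.3, 16.1 and 31.3) and Hist1h2ab (35.4, 29.5, 15.9 and 30.6). By fragments the 3 peaks differed: the summit of Hist1h3i held 183 fragments in WT, at a percentile of 90.7, over a local background of 5.44 times the genome-wide value. Hist1h4k and Hist1h2ab held 106 and 110, at percentiles of 78.6 and 79.6, below the all-gene median of 86.4. The local background at Hist1h4k and Hist1h2ab was 3.31 and 3.71 times that value in WT.

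The first comparison asks what loss of ANP32E changed. In Anp32e null, 32 of the 59 histone genes stood at least 5 percentile points lower by fold than in WT (54.2%), against 26.8% of 13879 genes with a peak in both lists. Only 3 stood at least 5 points higher, against 13.7% of all genes. At any size, 52 of 59 were lower, against 63% of all genes. The median difference, null minus WT, was -5.87 points (95% interval -7.09 to -4.21, over genes of 1 list pair), against -1.44 for all genes. Genes that share a peak repeat its value in these counts and in the interval. With each distinct peak counted once, the median was -6.30. Scaled to each list's background, the median summit was 0.66 log2 units higher in Anp32e null than in WT at histone genes and 0.64 higher at all genes. On the same scale the median local background was 0.51 log2 units higher at histone genes and 0.34 at all genes, and its part in the rank was not tested. These pooled medians did not hold in each cluster. At the 10 Hist2 genes the local background was 0.30 log2 units higher and the summit 0.53, and at the 2 Hist3 genes 0.15 and 0.26, all below the all-gene values, with median rank differences of -5.04 and -10.1. Ranked by −log10 p or by summit fragments instead of fold, the median difference was -0.42 and -0.43, against -0.28 and -0.44 for all genes, so histone genes and all genes lay close together in these rankings.

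The largest differences downward were at Hist1h3i (-31.8 points), Hist1h4k (-27.9) and Hist1h4h (-21.2), an H3 and 2 H4 genes. Hist1h4h went from 71.4 in WT to 50.2 in Anp32e null, with 275 and 200 fragments at the summit, which on the scale of each list's background was 0.33 log2 units higher in Anp32e null, against 0.64 at all genes. Fold itself was also lower at these 3 genes, with log2 ratios of -0.33, -0.25 and -0.20, and the median ratio was 0.19 over histone genes and 0.23 over all genes. The 3 genes that stood higher were Hist2h2aa2 (29.8), Hist1h4m (6.11) and Hist1h4n (5.52), all among the repeated ones. At Hist2h2aa2 the peak that stood for the gene was 375 bp wide and its own in WT, and 493 bp wide and shared with Hist2h3c2 in Anp32e null, so the difference set 2 different peaks side by side. Without the genes of over 50% repeated words, 31 of 54 were lower and 0 higher, with a median of -6.11.

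By class, at least 5 points lower were 3 of 4 H1, 8 of 15 H2A, 8 of 15 H2B, 5 of 12 H3 and 8 of 13 H4 genes, with median differences of -9.36, -5.87, -5.87, -4.67 and -7.10. The ranges of the classes overlapped. The median over the 46 Hist1 genes was -6.30. Peak width showed little: 39 of 59 were narrower in Anp32e null, against 59.3% of all genes, with median width ratios of 0.963 and 0.980.

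**Figure D5:**
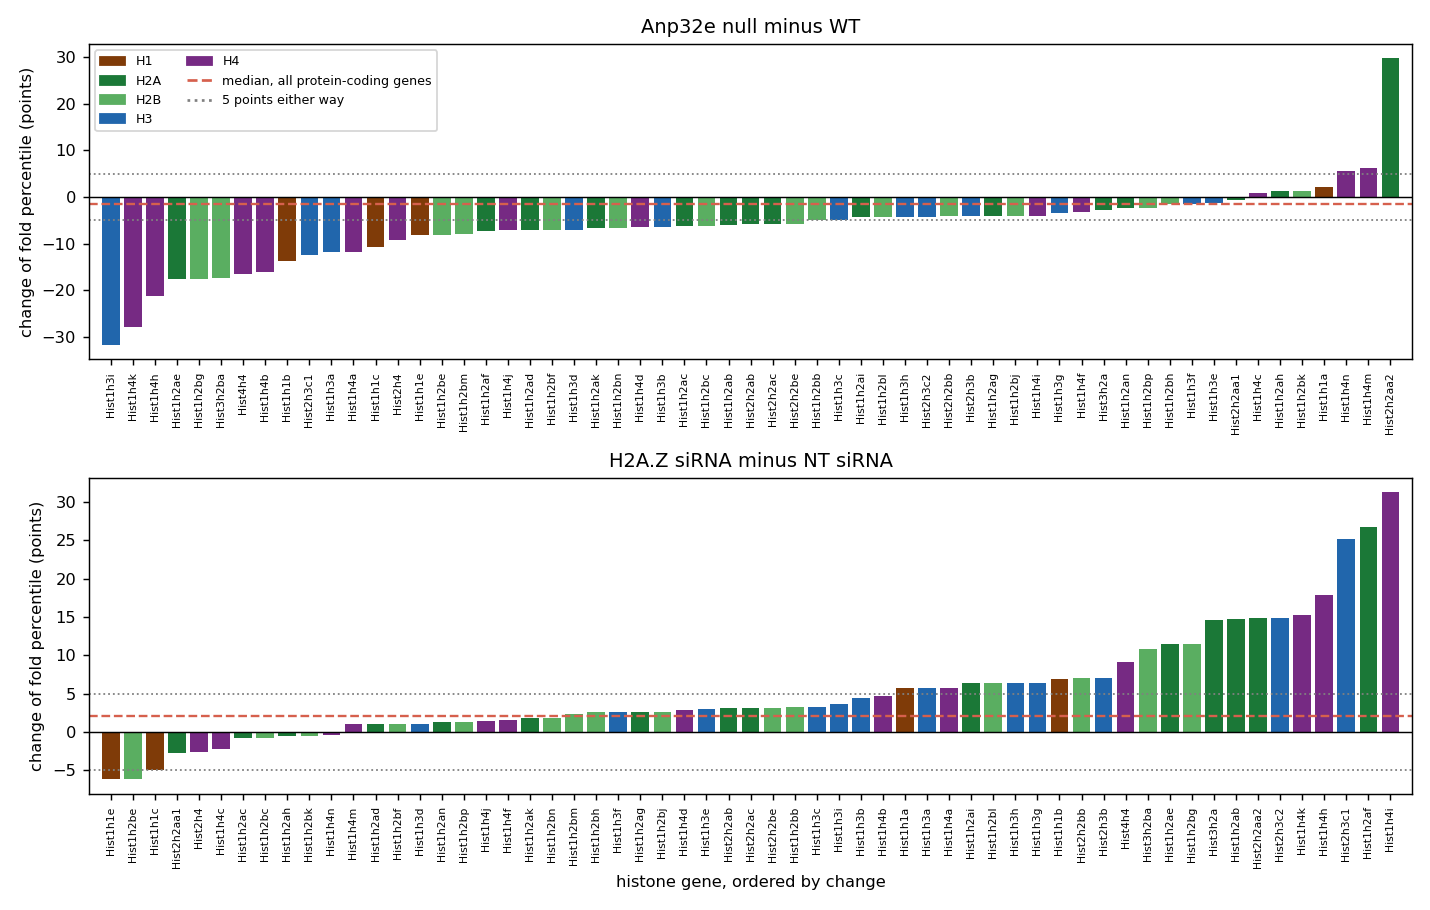
Change of fold percentile in points (y axis) of each of the 59 histone genes (x axis, ordered by change, bars coloured by class) for Anp32e null minus WT (top) and H2A.Z siRNA minus NT siRNA (bottom), with the all-gene median (red dashes) and 5 points either way (dotted). The top panel has 32 bars at or past 5 points down and 3 up, the bottom panel 3 down and 23 up.

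The second comparison asks what siRNA against H2A.Z changed in cells that lack ANP32E. In H2A.Z siRNA, 23 of 59 histone genes stood at least 5 points higher than in NT siRNA (39.0%), against 32.4% of 14112 genes, and 3 stood at least 5 points lower, against 8.28%. At any size, 48 of 59 were higher, against 67% of all genes. The median difference, H2A.Z siRNA minus NT siRNA, was 3.12 points (95% interval 2.33 to 5.73, with values of shared peaks repeated) against 2.07 for all genes. With each distinct peak counted once, it was 3.15. The sign rested on how many peaks were ranked. With lists cut to equal length, the median was -4.11, against -0.99 for all genes, and with the 20000 of highest fold it was -11.5 against -1.78. When summit and local background of the H2A.Z siRNA peaks were thinned to the NT siRNA depth, and peaks then too weak were dropped, it was 1.90 against 1.27, but peaks and widths were not called again, so the lists themselves were not brought to equal depth. The peak that stood for the gene was wider in H2A.Z siRNA at all 59 genes, which rested on 40 and 38 distinct peaks, and at 94.4% of all genes, with median width ratios of 1.13 and 1.14.

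The largest differences were at Hist1h4i (31.3 points), Hist1h2af (26.8) and Hist2h3c1 (25.1). At the first 2 of these a different peak stood for the gene in each list, so their differences set separate peaks side by side. Hist1h4i had a peak of its own, 734 bp wide, in NT siRNA, whereas in H2A.Z siRNA the peak of Hist1h2ag and Hist1h2bj, 1637 bp wide, stood for it. Hist1h2af likewise had its own peak of 580 bp in NT siRNA, and the 931 bp peak of Hist1h3g stood for it in H2A.Z siRNA. At Hist2h3c1, a repeated gene, the peak widened from 356 to 720 bp. Leaving out the 5 genes whose peak served a different set of histone genes in the 2 lists did not move the median (3.12 over 54). Without the genes of over 50% repeated words, 20 of 54 stood at least 5 points higher and 3 lower, with a median of 3.12. The 3 lower genes were Hist1h1e (-6.20) with Hist1h2be, whose GENCODE start falls on the same peak, and Hist1h1c (-5.05). RefSeq gives Hist1h2be a start 30 bp from the GENCODE one and another 35154 bp from it. The far start had its own peak in every list, at percentiles of 75.3, 65.1, 54.8 and 59.0.

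The H1 genes, whose linker histones bind DNA between nucleosomes, differed among themselves. Hist1h1e stood at 81.8, 73.7, 73.1 and 66.9 and Hist1h1c at 81.3, 70.6, 67.9 and 62.9. Hist1h1b stood at 59.4, 45.7, 39.2 and 46.1 and Hist1h1a at 39.5, 41.6, 39.8 and 45.5. The first 2 were lowest in H2A.Z siRNA and the last 2 were not. In WT a peak of 513 bp stood for Hist1h1a, and in the other lists the wide peak of Hist1h4a and Hist1h3a stood for it. That wide peak was present in all 4 lists, at 2156 bp in WT and 2070 to 2190 bp in the others, so the values of Hist1h1a set separate peaks side by side. H1 peaks were mostly broad, with medians over 4 genes of 1514.5, 1763, 1686.5 and 1950.5 bp, and ran well into the gene, as that of Hist1h1c at chr13:23738466-23740111 in WT. The higher median in Anp32e null than in WT includes the change of peak at Hist1h1a. There the peaks of Hist1h1e and Hist1h1c were narrower than in WT (1888 against 2256 bp and 1638 against 1646 bp), and that of Hist1h1b was wider (1523 against 1383 bp).

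Outside Hist1, the Hist2 genes shared a wide peak at Hist2h2ab, Hist2h2ac and Hist2h2be, of 2077 to 2442 bp, at percentiles of 72.1, 66.2, 64.6 and 67.7. A second wide peak served Hist2h3b and Hist2h2bb, at 79.3, 75.2, 67.7 and 74.6, and Hist2h4 had its own, at 80.7, 71.4, 76.8 and 74.2. Hist2h2aa1 ranked highest of the cluster in every list, at 88.9, 88.3, 93.1 and 90.3, with its copy Hist2h2aa2 at 39.5, 69.3, 54.6 and 69.5, though 47.9% and 50.8% of their 100-base words are repeated. Hist3h2a stood at 88.3, 85.4, 71.9 and 86.5 and its neighbour Hist3h2ba at 67.7, 50.2, 61.2 and 71.99. Hist3h2ba had the fewest fragments of the pair, 62 against 250 at the summit in WT. Hist4h4, alone on chromosome 6, stood at 69.6, 53.0, 44.8 and 53.9, and its local background went from 4.90 times the genome-wide value in WT to 9.52 in Anp32e null.

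NT siRNA and Anp32e null share the genotype but not the treatment or the depth, and Anp32e null already serves as a group above, so their values are only set side by side. NT siRNA stood at a median of -7.68 points from Anp32e null at histone genes and -0.42 at all genes. Scaled to background, the summit was 1.83 log2 units higher in NT siRNA at histone genes and 1.11 at all genes, and the local background 1.61 and 0.73 higher. Clusters differed in this. Summit and local background were 2.36 and 2.05 higher at Hist2, with a median rank difference of -1.59. They were 0.99 and 0.63 higher at Hist3 and 0.54 and 0.35 at Hist4, below the all-gene values, with rank differences of -1.27 and -8.22. Library, transfection and treatment cannot be told apart here, with 1 NT siRNA library.

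Other genes of histone supply were looked up as well. All 11 variant histone genes looked up had a peak in every list, as did all 8 genes of histone gene transcription and 3' end processing found in the annotation and all 7 histone chaperone genes. Of these, 3, 1 and 2 stood at least 5 points lower in Anp32e null than in WT and 1, 1 and 0 higher, with median differences of -1.73, -0.10 and -1.95, beside the 26.8% lower and 13.7% higher over all genes. At the fibroblast marker genes the difference was of similar size to that at histone genes: 5 of 9 were lower and 1 higher, with a median of -6.42 against -5.87. The processing genes ranked near the top in every list, with medians of 91.4, 94.9, 94.1 and 96.2. Npat, the scaffold of the histone locus body, stood at 98.7, 96.6, 95.4 and 96.4, and Casp8ap2, another component of it, at 99.4, 98.1, 97.2 and 96.0. Slbp, which binds the stem loop, stood at 86.4, 89.2, 77.8 and 84.3. H2afz, a gene for H2A.Z itself, stood at 86.2, 81.7, 70.03 and 72.8, and H2afv, the other H2A.Z gene, at 97.4, 97.5, 97.3 and 98.9. In H2A.Z siRNA against NT siRNA, 5 variant, 2 processing and 2 chaperone genes stood at least 5 points higher and none of the 26 lower, beside 32.4% and 8.28% over all genes. Of the fibroblast marker genes, 8 of 9 were higher and 0 lower, with a median of 9.45 against 3.12 at histone genes. These are differences between lists of unequal length, on which the sign at histone genes rested, and values with equal lengths were not computed for these other genes.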

How the data were processed

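ATAC-seq libraries of MEFs had been sequenced as paired ends, aligned to mm10 with Bowtie2, freed of PCR duplicates with Picard and merged by group before MACS2 called peaks. The deposited lists give, per peak, the authors' fold ratio of summit pileup over local background, the −log10 p and q-value, a display score (10 times the −log10 q-value) and, per the file headers' standard layout, the summit offset. Per the methods, peaks on mitochondrial DNA or in blacklisted regions were dropped for later steps. The deposited WT and Anp32e null lists still held peaks outside the chromosomes used here, on which 84040 of 84126 and 82567 of 82640 peaks lay. Whether blacklisted regions had been removed before deposit is not given. A mapping-quality filter and read handling at repeats are not given in the sources used here. Lists were limited to chromosomes 1 to 19, X and Y. For each gene, the peak of highest fold percentile within 1 kb of any GENCODE M21 transcript start was used. Whole-fragment pileup and local background were solved from fold and −log10 p-value under the Poisson model, with a pseudocount of 1. Pileups came out within 0.05 of whole for 100% of peaks, and 20000 of 20000 simulated pileups were returned. Medians carry order-statistic 95% intervals. Intervals cover counting error or spread over genes, not replicates. A difference of 5 percentile points was counted. Words of 100 bases in 2 kb windows were looked up in GRCm38 on both strands. Head-to-head starts lay under 500 bp apart, and Hist1 stretches were separated by gaps of 100 kb. Python 3.11.15, numpy 2.4.6, pandas 2.3.3, scipy 1.17.1 and matplotlib 3.10.9 were used.

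Genes named were those without a peak in some list, the 3 highest and lowest by mean percentile, the 3 largest differences each way, H1 genes, genes outside Hist1 and the testis genes. Hist1h4c and the pair Hist1h2ah and Hist1h2bk were chosen for display after their values were seen. The genes, lists and motifs were chosen with earlier results of these data known. Mizf, on the list of processing genes, is an older symbol of Hinfp in RefSeq, so that gene was listed under both names and counted once.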

Additional observations from a re-analysis of the deposited data

How the results depend on the processing

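Of 178 values under 14 alternatives, 149 stayed within the interval or within 1.5 times the count. Of the alternatives, 4 were chosen after seeing the data (RefSeq starts, ranking by summit fragments, repeated genes left out, peaks serving the same genes). With the 20000 peaks of highest fold, the genes with a peak numbered 32, 24, 8 and 7 (groups in the order used above), their median percentiles were 34.7, 42.1, 46.5 and 47.7, and median widths 1454.5 bp (WT) and 1059 bp (H2A.Z siRNA). Counting each peak once gave 39 in Anp32e null and 38 in H2A.Z siRNA. Ranked by −log10 p, median percentiles were 88.8, 85.6, 94.3 and 94.7, and by summit fragments 90.7, 89.4, 96.6 and 97.2. With equal numbers of peaks, that of H2A.Z siRNA was 57.6. The median change null minus WT was -13.2 with 20000 peaks, -0.424 by −log10 p and -0.428 by summit fragments, and -6.41 to -4.65 under the other 11. That of H2A.Z siRNA minus NT siRNA reversed to -4.11 with equal numbers and to -11.5 with 20000 peaks, and was 0.530 by −log10 p, 0.432 by summit fragments and 1.90 after thinning without a new peak call. The cause of these shifts was not tested beyond the fewer peaks ranked. Depth, by the background of 3.88 to 17.8 fragments, differs between lists, and peaks of few fragments, as at Hist2h3c1 (37 at the summit in WT), are the least precise. No paired analysis was possible because the libraries of a group were merged into 1 list, and for the same reason no library could be left out in turn.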

Other observations

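Annotated histone pseudogenes were kept out of the 67 genes. Hist3h2bb-ps lies within the peak of Hist3h2a, at percentiles of 88.3, 85.4, 71.9 and 86.5 in the order used above. Hist1h2aj lies within that of Hist1h2bm, an H2B gene, at 90.9, 83.01, 72.2 and 74.5. Hist1h2al, outside the clusters, had a peak of 504 bp in WT alone, at the 33.1 percentile with 31 fragments at its summit. The stretch with the 2 testis genes held no peak in any list, whereas peaks covered 35.8%, 33.3%, 33.0% and 38.2% of the smallest Hist1 stretch with peaks, which holds 5 genes.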
